A study of Mus musculus with 12 samples.

Results

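The nuclear genes of respiratory complex I (NADH:ubiquinone oxidoreductase) were examined in whole livers of male C57BL/6J mice after sham surgery, cecal ligation puncture (CLP) or CLP with dichloroacetate (CLP+DCA). Genes were taken by their symbols, Nduf followed by a, b, c, s, v or ab and a number, which leaves out the assembly factors (Ndufaf), and the rule used no measured value. It found 38 of the 25611 genes in the table of read counts, of which 37 passed the filter on low counts. The groups held 4 mice each, aged 8 to 10 weeks. In CLP the cecum is tied off and punctured so that gut bacteria reach the peritoneum, and in sham surgery the abdomen is opened only. The CLP+DCA mice had the same surgery as the CLP mice and were given DCA at 25 mg/kg intraperitoneally at 24 hr, and livers of all groups were taken at 30 hr post-surgery. The sample records give an injection at 24 hr, and harvest 6 hr after it, for all 12 mice, the sham and CLP mice with no DCA. A sham group given DCA is not among these samples, so that DCA is seen only in septic mice.

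Complex I is the entry point of most electrons into the respiratory chain of the inner mitochondrial membrane. Its matrix arm oxidises NADH through flavin and iron-sulfur clusters and passes the electrons to ubiquinone, and its membrane arm pumps protons. A few core subunits carry out this chemistry, of which the membrane ones are encoded by mitochondrial DNA, and many accessory subunits surround, assemble and stabilise them. Hepatocytes are rich in mitochondria and depend on the chain for the ATP spent on gluconeogenesis and urea synthesis. DCA inhibits the pyruvate dehydrogenase kinases and thereby lets pyruvate enter the mitochondrion as acetyl-CoA, whose oxidation yields the NADH that complex I consumes.

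The 38 genes comprised all 7 nuclear core subunits, 29 accessory subunits, Ndufa4, which carries the family name but is now placed in complex IV, and its paralogue Ndufa4l2. No gene of the mitochondrial chromosome is among the rows, so that the membrane core subunits were not analysed here, and neither was Ndufb1. Ndufs5, an accessory subunit of the intermembrane space face, had 1 read in 1 of the 12 mice. A count of 0 in the shallowest library allows a level of up to 0.123 CPM (reads scaled to library size), by counting error alone, and no comparison was made for it. Its row spans chr4:123712710-123718186 on the minus strand of mm10 and overlaps the row of BC002163 on the same strand, which has 0 reads there. What this overlap does to the counts of both rows was not tested, and the values of Ndufs5 are therefore uncertain. Ndufa10 shares its strand with Mir6900. On the opposite strand, Ndufa13 overlaps Tssk6, Ndufs1 overlaps Ino80dos, Ndufs7 overlaps Bc1, Ndufb11 overlaps Rbm10, Ndufa4l2 overlaps Shmt2, Ndufa2 overlaps Tmco6 and Ndufa1 overlaps Rnf113a1. The library kit does not mark strand, so that reads of these pairs cannot be told apart where they overlap.

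RefSeq promoter windows of the GRCm38.p6 build, which run from 250 bases before to 50 bases after a start site, were found for 33 of the 38 genes. Sequences are shown because nuclear respiratory genes are known to share binding motifs of the factors NRF1 and YY1. Among the windows printed are those of the genes with the largest and smallest differences in CLP versus sham, Ndufb10 and Ndufa1. Others, Ndufs6 (log2 fold change -0.32) and Ndufs3 (-0.33), lie near the family median of -0.34. In 7 of the 33 windows (21.2%) stood the NRF1 motif (GCGC, any base, then TGCGC), on either strand, as in 5.19% of all 27025 genes with a window and 11.2% of the 10502 that were tested. The YY1 motif AANATGGCG stood in 7 windows (21.2%), against 2.76% of all genes and 5.73% of those tested. The ETS motif CCGGAAG was found in 4 windows (12.1%), against 9.93% and 19.3%, the CREB motif TGACGTCA in 3 (9.09%), against 2.03% and 3.47%, and the ERR motif AAGGTCA in 3 (9.09%), against 5.38% and 4.28%. These 5 motifs do not overlap one another in the windows printed, and they are some of 15 spellings searched with results of these data in view. A match is a string of letters and shows no binding, and a window without one lacks only these letters. In the windows below, on the minus strand and written 5′ to 3′, capitals mark the letters of these 5 motifs on either strand. Ndufa9 carries YY1 30 bases past the start, Ndufs6 carries NRF1 and YY1, Ndufs3 carries ETS in both orientations, Ndufa10 carries CREB, and Ndufb10 and Ndufa1 carry none.
Ndufa9 (chr6:126849095-126849394): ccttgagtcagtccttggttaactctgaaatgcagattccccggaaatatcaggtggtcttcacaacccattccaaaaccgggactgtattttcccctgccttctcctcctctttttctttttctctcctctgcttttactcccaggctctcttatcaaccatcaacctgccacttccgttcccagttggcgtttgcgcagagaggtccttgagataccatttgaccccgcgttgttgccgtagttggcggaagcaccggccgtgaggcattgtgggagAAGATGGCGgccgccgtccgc
Ndufs6 (chr13:73328433-73328732): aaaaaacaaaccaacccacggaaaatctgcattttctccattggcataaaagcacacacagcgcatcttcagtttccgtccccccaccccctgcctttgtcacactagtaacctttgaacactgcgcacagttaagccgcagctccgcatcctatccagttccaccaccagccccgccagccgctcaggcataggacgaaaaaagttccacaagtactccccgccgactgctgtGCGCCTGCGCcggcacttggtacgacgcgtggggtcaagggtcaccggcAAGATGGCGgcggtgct
Ndufs3 (chr2:90904672-90904971): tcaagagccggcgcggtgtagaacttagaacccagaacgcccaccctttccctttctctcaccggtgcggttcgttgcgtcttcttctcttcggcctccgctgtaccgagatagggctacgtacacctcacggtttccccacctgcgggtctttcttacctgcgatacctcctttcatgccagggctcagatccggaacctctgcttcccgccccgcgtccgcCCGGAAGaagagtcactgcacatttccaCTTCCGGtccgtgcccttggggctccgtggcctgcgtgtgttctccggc
Ndufa10 (chr1:92473709-92474008): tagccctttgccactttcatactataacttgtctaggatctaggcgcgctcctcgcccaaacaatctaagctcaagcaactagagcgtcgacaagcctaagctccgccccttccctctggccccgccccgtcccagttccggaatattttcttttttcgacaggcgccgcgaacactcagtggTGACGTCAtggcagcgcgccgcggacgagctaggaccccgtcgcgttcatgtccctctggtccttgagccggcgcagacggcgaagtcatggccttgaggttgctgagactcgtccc
Ndufb10 (chr17:24724374-24724673): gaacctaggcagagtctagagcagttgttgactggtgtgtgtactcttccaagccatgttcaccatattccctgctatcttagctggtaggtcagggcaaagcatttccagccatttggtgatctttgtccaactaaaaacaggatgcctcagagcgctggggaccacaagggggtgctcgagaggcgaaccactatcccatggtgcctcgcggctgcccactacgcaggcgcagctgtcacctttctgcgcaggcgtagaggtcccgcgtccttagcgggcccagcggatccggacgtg
Ndufa1 (chrX:37191189-37191488): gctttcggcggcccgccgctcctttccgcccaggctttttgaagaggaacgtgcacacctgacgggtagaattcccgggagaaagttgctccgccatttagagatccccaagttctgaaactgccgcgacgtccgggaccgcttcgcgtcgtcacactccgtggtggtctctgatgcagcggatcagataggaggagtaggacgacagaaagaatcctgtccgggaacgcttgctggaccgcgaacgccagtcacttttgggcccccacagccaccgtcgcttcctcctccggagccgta

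Per mouse, 24436513 to 44266819 reads were counted on genes, and the complex I genes took 42481 to 105639 of them. Ndufa4l2 had 10 to 74 reads per mouse and the other 36 tested genes had 172 to 8762, so that relative counting error is largest for Ndufa4l2. Counting error is not small beside the spread between mice for every other gene, since some spreads are narrow, as for Ndufa9 in sham (87.5 ± 1.47 CPM, SD, n = 4). The replicates are separate mice. Hepatocyte markers were abundant in every mouse, with 10 genes together at 78300 to 99800 CPM in sham, 45200 to 63900 CPM in CLP and 40300 to 76300 CPM in CLP+DCA. Alb was the largest part of this sum, and its log2 fold change in CLP versus sham was -1.11 (group means 46700 and 21600 CPM). Among the 10 markers 7 were lower in that comparison, 2 of them with an unadjusted p under 0.05 by edgeR. That is near the 13.1% of all genes lower at this p. Alb alone of the 10 passed an FDR of 0.05 by edgeR (adjusted p = 0.0463), as 1.14% of all genes did as lower. The 3 that were higher were Apob (0.26), Ahsg (0.09) and Hnf4a (0.05). Neutrophil markers, 9 of 11 tested, summed to 6.46 to 9.3 CPM in sham, 31.8 to 44.5 CPM in CLP and 6.74 to 57.4 CPM in CLP+DCA. In CLP versus sham 8 of the 9 were higher and 1, Ly6g, was lower (-0.78, adjusted p = 0.136 by edgeR). S100a8 and S100a9 were the largest parts of the sum, at 11 and 13.6 CPM in CLP. Kupffer cell and macrophage markers summed to 208 to 347, 326 to 415 and 269 to 521 CPM in these groups, endothelial markers to 115 to 143, 133 to 168 and 110 to 160 CPM, and stellate cell and cholangiocyte markers to 94.8 to 138, 156 to 400 and 114 to 339 CPM. The 400 CPM stood in CLP replicate 3 alone, with the other CLP mice at 156 to 176 CPM. Likewise the 339 CPM stood in CLP+DCA replicate 3 alone, with the other CLP+DCA mice at 114 to 147 CPM. Lymphocyte markers summed to 2.03 to 4.15, 0.539 to 1.6 and 0.812 to 2.72 CPM, and the 3 of 9 that were tested were all lower in CLP than in sham without overlap, with a median log2 fold change of -1.54 (adjusted p 0.118 to 0.169 by edgeR). Of all genes 14.2% were lower without overlap. Of the erythroid markers Hba-a1, Hba-a2, Hbb-bs and Hbb-bt had no read while Alas2 gave 78.7 to 87.2, 33.5 to 57 and 22.8 to 84.6 CPM. In whole liver, fewer hepatocytes and less RNA per hepatocyte cannot be told apart, and the part of these cells in the values below was not tested.

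A pair of mice, CLP replicate 3 and CLP+DCA replicate 3, lay at the edge of their groups. The 28 acute phase genes, which hepatocytes raise in inflammation, took 10.8% to 12.3% of all counted reads in sham. They took 23.2%, 34%, 19.7% and 31.3% in CLP replicates 1 to 4 and 15.7%, 19%, 33.4% and 14.3% in CLP+DCA replicates 1 to 4. CLP replicate 3 was thus lowest of its group, close to CLP+DCA replicate 2, and CLP+DCA replicate 3 lay within the range of the CLP mice. The same pair of mice lay at the edge of their groups in complex I. Of the 37 tested genes, 34 were highest in CLP replicate 3 among the CLP mice, and 33 were lowest in CLP+DCA replicate 3 among the CLP+DCA mice. Such counts are not particular to this pair. Among the sham mice, replicate 3 was highest for 31 genes and replicate 4 lowest for 23. The group labels of both mice were kept as given. Whether the labels of this pair were exchanged was not tested, and every value of CLP+DCA versus CLP, and of each septic group versus sham, depends on them. Results that rest on these mice are given with and without them below.

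Complex I transcripts were lower in CLP than in sham for all 37 tested genes, and none of these differences passed an FDR of 0.05. Together they took 0.262% to 0.305% of the reads of a sham mouse, and 0.193%, 0.174%, 0.252% and 0.167% in CLP replicates 1 to 4. In CLP+DCA replicates 1 to 4 they took 0.252%, 0.26%, 0.168% and 0.236%. The CLP mice all lay below the sham mice, and so did the CLP+DCA mice, among which replicate 3 lay with CLP replicates 2 and 4. As normalised expression, the summed level was 2642 ± 138.5 CPM in sham, 2088.1 ± 223.9 CPM in CLP and 2243.3 ± 298 CPM in CLP+DCA (SD, n = 4). The mean log2 CPM over the genes, less the sham mean, was -0.40, -0.39, -0.11 and -0.46 in CLP replicates 1 to 4 and -0.17, -0.02, -0.54 and -0.21 in CLP+DCA replicates 1 to 4, where sham mice ranged from -0.07 to 0.11. No p is given for such a mean, since genes are not replicates. The median of all genes moved by at most 0.02 in any mouse on the same scale.

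**Figure D1:**
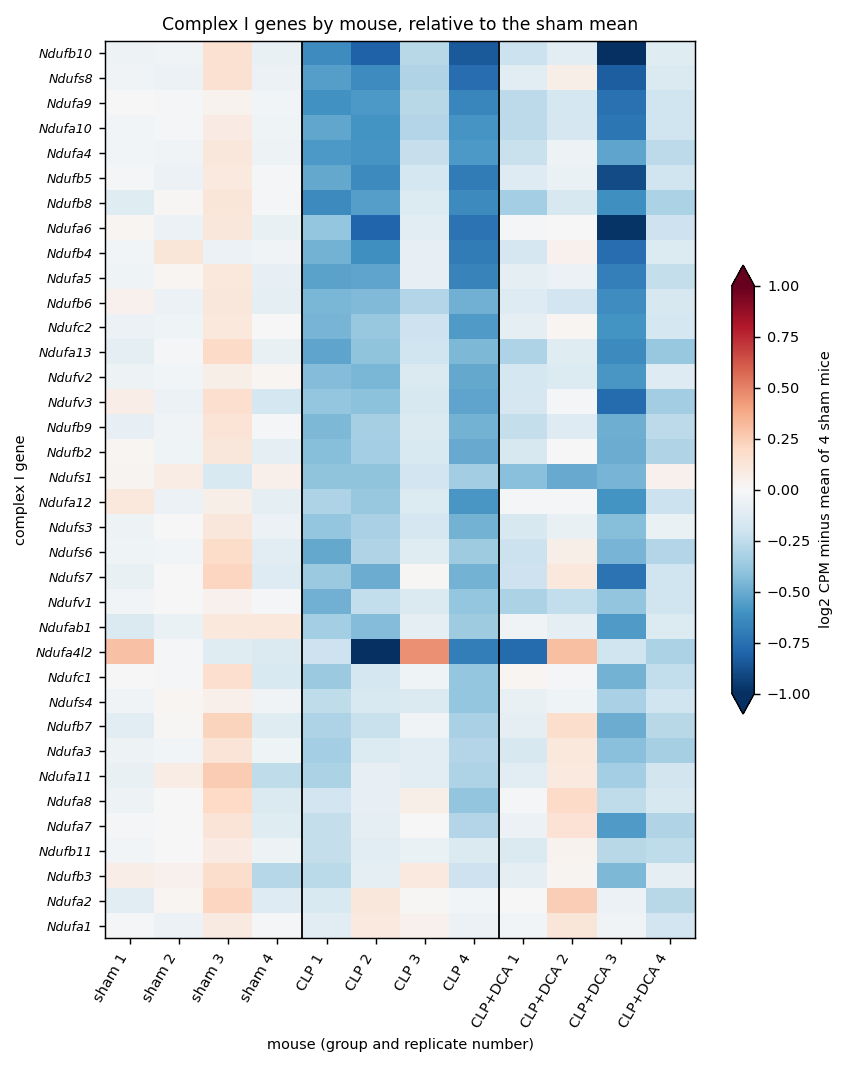
Level of 36 of the tested complex I genes (rows, ordered by the log2 fold change in CLP versus sham) in each of the 12 mice (columns, by group and replicate number). Colour gives log2 CPM less the mean of the 4 sham mice, from -1 to 1, and blue is lower: CLP replicates 1, 2 and 4 and CLP+DCA replicate 3 are blue in most rows, and CLP replicate 3 and the other CLP+DCA mice are paler.

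In CLP versus sham, the question being what sepsis does to the liver transcriptome, the median log2 fold change of the 37 genes was -0.34 (-20.9%), and of all 13190 genes tested it was 0.02. Single genes ranged from -0.63 to -0.01. By edgeR's quasi-likelihood test no complex I gene passed an FDR of 0.05, as 2.78% of all genes did, and adjusted p ran from 0.0522 to 0.959. With an unadjusted p under 0.05, 25 of the 37 (67.6%) were lower, as were 13.1% of all genes, and 0 were higher, as were 15.5% of all genes. In 24 genes (64.9%) every CLP mouse lay below every sham mouse, as in 14.2% of all genes. The call depends on the test: DESeq2 on the 8 mice compared, the tool of the study, put 24 (64.9%) below an FDR of 0.05 as lower, against 11.5% of all genes, and edgeR on these 8 mice put 20 there, against 8.99%, whereas edgeR on all 12 mice, in which the spread of CLP+DCA enters, put none there. Leaving out CLP+DCA replicate 3 gave 23 lower genes by edgeR, against 11.5% of all genes, and leaving out CLP replicate 3 gave 14, against 3.26%, with medians of -0.34 and -0.42.

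**Figure D2:**
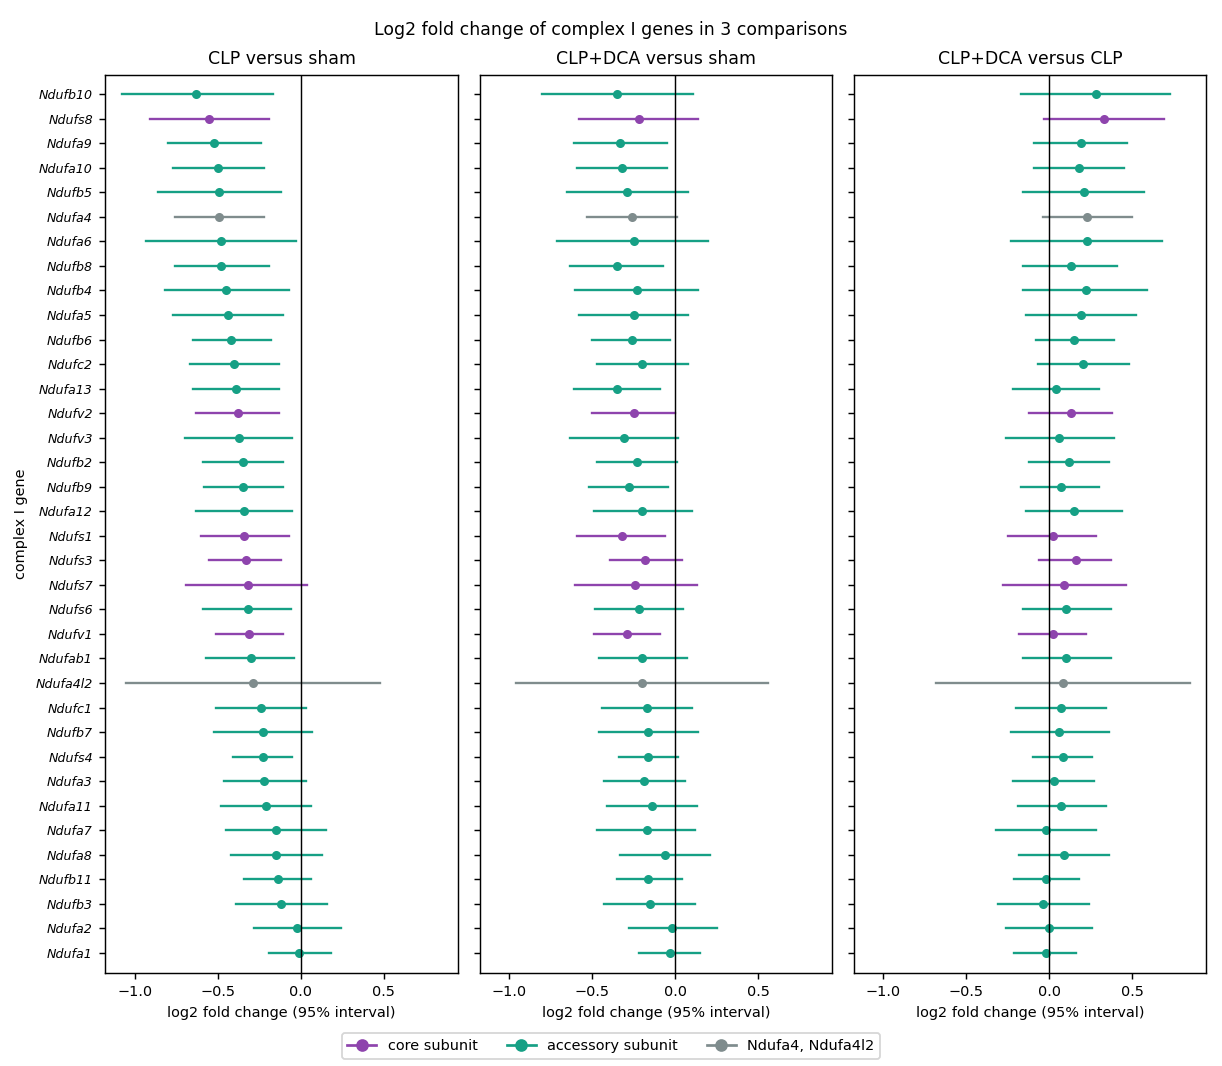
Log2 fold change of 36 of the tested complex I genes (rows) in the 3 comparisons, sham being the control of the first panel and of the second and CLP that of the third, as the edgeR estimate (point) with its 95% interval (line). Core subunits, accessory subunits and the pair Ndufa4 and Ndufa4l2 are coloured apart; all points lie below 0 in the first and second panels, and most lie above 0 in the third, where every interval holds 0.

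The core subunits that oxidise NADH were all lower in CLP, with a median of -0.34, and all 3 had an unadjusted p under 0.05 (13.1% of all genes were lower at this p). Ndufv1, which binds NADH and the flavin, stood at 128, 131, 135 and 129 CPM in sham replicates 1 to 4, 93.5, 110, 118 and 99.9 CPM in CLP and 105, 110, 99.2 and 114 CPM in CLP+DCA. Both septic groups lay below sham without overlap and overlapped each other. Its log2 fold change in CLP versus sham was -0.31 (SE 0.09, adjusted p = 0.0734). Ndufv2, which holds an iron-sulfur cluster beside the flavin, was at 75, 76.1, 81 and 78.8 CPM in sham, 57.6, 56.7, 70.2 and 54.4 CPM in CLP and 68.8, 70.6, 51.8 and 70.9 CPM in CLP+DCA. Here again the septic mice all lay below sham, with replicate 3 highest of the CLP mice and replicate 3 lowest of the CLP+DCA mice. The log2 fold change of Ndufv2 was -0.38 (SE 0.11, adjusted p = 0.0756). Ndufs1, the largest subunit and the holder of most clusters of this module, had 86.6, 89.7, 76.6 and 88.3 CPM in sham, 64.4, 64.4, 74.4 and 66.8 CPM in CLP and 63.8, 60, 61.6 and 87.5 CPM in CLP+DCA. It was low in every septic mouse except CLP+DCA replicate 4, which reached the sham range, and its log2 fold change in CLP was -0.34 (SE 0.12, adjusted p = 0.105). Ndufs1 was the 1 gene that edgeR put below an FDR of 0.05 when CLP+DCA replicate 4 was left out (adjusted p = 0.0488), as 1.6% of all genes were called as lower there.

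The core subunits that hand electrons to ubiquinone had a median of -0.33, and 3 of 4 had an unadjusted p under 0.05 (13.1% of all genes were lower at this p). Ndufs8, which carries iron-sulfur clusters on the way to ubiquinone, had 53.7, 53, 61.3 and 53.1 CPM in sham, 37.7, 35.7, 44.9 and 32.5 CPM in CLP and 51.4, 57.4, 31.2 and 49.9 CPM in CLP+DCA. All CLP mice were below all sham mice, while 3 CLP+DCA mice lay near sham and the fourth below every CLP mouse. Its log2 fold change of -0.55 (SE 0.17, adjusted p = 0.0748) was the lowest of the core subunits. Ndufs3, a scaffold of the module, had 66.6 to 75.1 CPM in sham and 53.2, 55.4, 61.7 and 50.1 CPM in CLP, again without overlap (-0.33, SE 0.10, adjusted p = 0.0733). Ndufs7, which holds the terminal cluster beside the ubiquinone pocket, had 55.9, 58.6, 68.3 and 53.7 CPM in sham, 45.5, 41.7, 59.2 and 42.5 CPM in CLP and 51.1, 63.3, 35.3 and 51.2 CPM in CLP+DCA. CLP replicate 3 lay in the sham range and the groups overlapped (-0.32, SE 0.17, adjusted p = 0.221). Ndufs7 did not pass in DESeq2 on the 8 mice either (adjusted p = 0.0887).

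**Figure D3:**
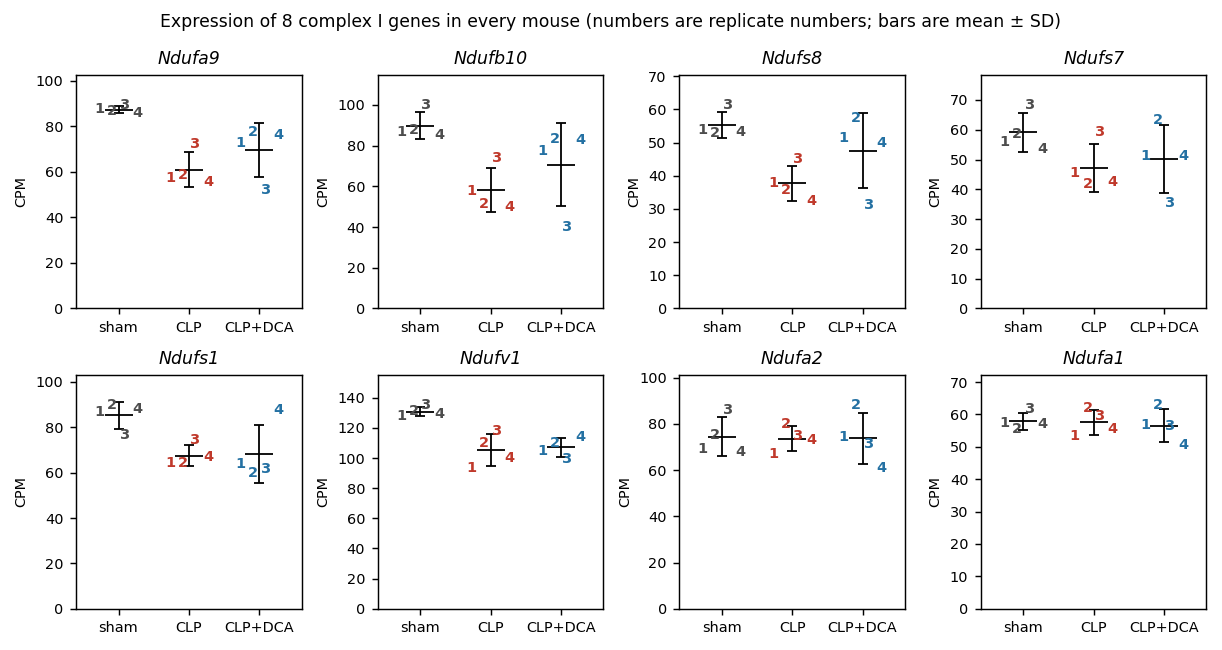
Expression in CPM of 8 complex I genes in each of the 12 mice, with digits for the replicate number and bars for the mean ± SD (n = 4 per group); axes start at 0. Ndufa9, Ndufb10 and Ndufs8 are lower in every CLP mouse than in every sham mouse with CLP+DCA replicate 3 below the CLP mice, CLP replicate 3 lies in the sham range for Ndufs7, and the groups overlap for Ndufa2 and Ndufa1.

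Accessory subunits of the matrix arm had a median of -0.34 in CLP versus sham, and 7 of 9 had an unadjusted p under 0.05 (13.1% of all genes were lower at this p). Ndufa9, an NADPH-binding subunit at the joint of the arms, had the smallest p of all members. It stood at 87.6, 86.7, 89.4 and 86 CPM in sham, 57.5, 58.6, 72.2 and 55.6 CPM in CLP and 72.8, 77.5, 52.2 and 76.2 CPM in CLP+DCA. No septic mouse reached the sham range, and its log2 fold change was -0.52 (SE 0.13, adjusted p = 0.0522, 95% interval -0.80 to -0.24). Ndufa6, an LYR-motif protein that binds the acyl carrier protein, was lower by a similar size with wider spread, at 106 ± 6.3 CPM and 75.7 ± 17.3 CPM in the sham and CLP mice (SD, n = 4, log2 fold change -0.48, adjusted p = 0.156). Ndufa5, Ndufv3, Ndufa12 and Ndufs6 had log2 fold changes of -0.44, -0.37, -0.34 and -0.32. Ndufs4, whose loss causes Leigh-like disease, differed less but with little spread, from 49.3 ± 1.48 CPM to 41.9 ± 3.23 CPM (-0.23, SE 0.08, adjusted p = 0.101), and its groups did not overlap. Ndufa7 (-0.15) and Ndufa2 (-0.02) had the smallest differences of this arm. Ndufa2, a thioredoxin-fold subunit, had 68.9, 75, 86.2 and 67.8 CPM in sham, 66.8, 80, 74.7 and 72.9 CPM in CLP and 74.5, 88, 71.3 and 61.1 CPM in CLP+DCA. The groups cover one another (SE 0.12, adjusted p = 0.931), with a 95% interval of -0.28 to 0.24 in CLP versus sham, and the sign turns with the setting.

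Accessory subunits of the proximal membrane arm had a median of -0.23, and 3 of the 8 tested had an unadjusted p under 0.05 (13.1% of all genes were lower at this p). These 3 were Ndufa10, Ndufc2 and Ndufa13. Ndufa10, which has the fold of a nucleoside kinase, had 111, 112, 120 and 110 CPM in sham, 78.9, 74.8, 92.2 and 75.3 CPM in CLP and 94.4, 101, 68.7 and 98.7 CPM in CLP+DCA. Every septic mouse was below sham, and the log2 fold change was -0.50 (SE 0.12, adjusted p = 0.0541). Ndufa13, also known as GRIM-19, had 79 to 96.3 CPM in sham and 58.7 to 73.7 CPM in CLP (-0.39, SE 0.12, adjusted p = 0.0764), and CLP+DCA stood at 66.3 ± 9.72 CPM. Ndufc2 was at 40.2 ± 2.11 CPM in sham and 30.4 ± 3.27 CPM in CLP (-0.40, adjusted p = 0.0792). Ndufc1 (-0.24), Ndufa3 (-0.22), Ndufa11 (-0.21) and Ndufa8 (-0.15) had smaller differences. Ndufa1, a small X-linked subunit needed for assembly, had the smallest. It had 57.2, 55.6, 61.6 and 56.9 CPM in sham, 53.3, 61.9, 59.5 and 55.6 CPM in CLP and 56.6, 62.8, 56.4 and 50.5 CPM in CLP+DCA. Its groups overlap widely, and its log2 fold change of -0.01 (SE 0.08, adjusted p = 0.959) has a 95% interval of -0.19 to 0.18, which leaves out the median of the family, and its sign turns with the setting. A test of Ndufa1 against the other members was not run.

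Accessory subunits of the distal membrane arm had a median of -0.38, and 7 of 10 had an unadjusted p under 0.05 (13.1% of all genes were lower at this p). Ndufb10 had the lowest log2 fold change of all members, -0.63 (SE 0.21, adjusted p = 0.0893). It had 86.7, 87.5, 99.9 and 85.3 CPM in sham, 57.9, 51.1, 73.8 and 50 CPM in CLP and 77.1, 83, 40.1 and 82.5 CPM in CLP+DCA. CLP mice and CLP+DCA mice all lay below sham, and the lowest mouse of all was CLP+DCA replicate 3. Ndufb8, the complex I protein often probed on blots, had 68.2, 74.7, 80.3 and 73.2 CPM in sham and 47.7, 50.5, 67.2 and 47.6 CPM in CLP (-0.48, SE 0.13, adjusted p = 0.0637). Ndufb6 had 49.4, 46, 51.8 and 44.8 CPM in sham and 35, 35.2, 39.1 and 34.4 CPM in CLP (-0.42, SE 0.11, adjusted p = 0.057), and these did not overlap. Ndufb5, Ndufb4, Ndufb9 and Ndufb2 had log2 fold changes of -0.49, -0.45, -0.35 and -0.35, and in each of them the groups did not overlap. Ndufb7 (-0.23), X-linked Ndufb11 (-0.14) and Ndufb3 (-0.12) differed least. Ndufb3 had 37.8, 37.2, 40.7 and 29.7 CPM in sham and 30, 33.8, 38.7 and 31.3 CPM in CLP, and these overlap (SE 0.13, adjusted p = 0.542).

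Ndufab1, the mitochondrial acyl carrier protein, which sits in both arms and also serves lipoate synthesis, was at 32.8 ± 2.84 CPM in sham and 26.6 ± 2.78 CPM in CLP, with a log2 fold change of -0.30 and an adjusted p of 0.134. Ndufa4 had 218, 217, 241 and 214 CPM in sham, 149, 148, 189 and 149 CPM in CLP and 190, 215, 154 and 185 CPM in CLP+DCA. It was lower in every CLP mouse than in sham (-0.49, SE 0.12, adjusted p = 0.0561), like Cox7b and other genes of complex IV to which it belongs. Ndufa4l2, known as a hypoxia-induced gene, was near the limit of what these libraries resolve, with 1.32 ± 0.195 CPM in sham, 1.05 ± 0.559 CPM in CLP and 1.14 ± 0.352 CPM in CLP+DCA (-0.29, SE 0.35, adjusted p = 0.595). Without the pair, the remaining 35 genes had the same median of -0.34.

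Levels of different genes were set side by side as CPM per kilobase of exon (GENCODE M21), in sham. Ndufa4 was highest at 357 ± 20 CPM per kb, followed by Ndufb9 at 213 ± 14.4 and Ndufa6 at 155 ± 9.51. Ndufb2 at 9.27 ± 0.588, Ndufab1 at 7.49 ± 0.651 and Ndufa4l2 at 1.41 ± 0.208 CPM per kb were lowest of the tested genes, whose median was 57.8 CPM per kb (SD, n = 4). The ranges of neighbours in this order overlapped in 28 of 36 pairs, so that most neighbours cannot be ordered. Among core subunits, Ndufv1 stood at 73.7 ± 1.75 CPM per kb, Ndufs3 at 66.4 ± 3.73 and Ndufs1 at 30.3 ± 2.11 CPM per kb. The annotated exons of Ndufb2 (4375 bases) and Ndufab1 (4387 bases) are the longest of the family, and a level per kilobase depends on that length. Ndufa1, which hardly differed between groups, was among the highest at 138 ± 6.23 CPM per kb, and Ndufb10, which differed most, stood close to it at 123 ± 9.24 CPM per kb.

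DCA was compared within sepsis, CLP+DCA versus CLP, to ask whether it acts on the septic transcriptome. Of the 37 genes, 33 were higher and 4 lower in CLP+DCA, with a median log2 fold change of 0.09 (6.33%), against 0.01 over all genes. None passed an FDR of 0.05 by edgeR, as 0.00758% of all genes did, and 0 had an unadjusted p under 0.05 as higher, against 5.06% of all genes. The groups overlapped in every complex I gene, whereas 2.32% of all genes were higher without overlap. By DESeq2 on the 8 mice none was called as higher, against 0.31% of all genes. The smallest p was that of Ndufs8, with 37.7 ± 5.24 CPM in CLP and 47.5 ± 11.3 CPM in CLP+DCA (SD, n = 4), a log2 fold change of 0.33 (SE 0.16, adjusted p = 0.529) and a 95% interval of -0.03 to 0.69. Ndufa4 (0.23, SE 0.12, adjusted p = 0.565), Ndufc2 (0.20, SE 0.12, adjusted p = 0.62), Ndufs3 (0.16, SE 0.10, adjusted p = 0.625) and Ndufa9 (0.19, SE 0.13, adjusted p = 0.647) followed. In Ndufa9, 3 of 4 CLP+DCA mice lay above every CLP mouse and the fourth below every one.

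The size of the difference between the septic groups moved with single mice. Without CLP+DCA replicate 3 the median was 0.19, and Ndufs8 alone of the 37 genes passed an FDR of 0.05 by edgeR as higher (0.49, adjusted p = 0.0334), where 2.01% of all genes did, so that the members' share was near that of all genes. Without CLP replicate 3 the median was 0.18 and no gene passed. With both left out, a choice made after their values were seen and one that widens the difference by its construction, the median was 0.27 and 16 genes passed as higher, against 8.27% of all genes. The difference was nearly gone without CLP+DCA replicate 2, the highest of its group for 29 genes, with a median of 0.02, and without CLP replicate 4, with 0.04. limma voom with sample quality weights put 10 genes below an FDR of 0.05 as higher, against 4.65% of all genes, with a median of 0.23. Among them were Ndufs8, Ndufa4, Ndufc2 and Ndufa9, while Ndufs3 stayed above it (adjusted p = 0.0635).

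In CLP+DCA versus sham, all 37 genes were again lower, with a median log2 fold change of -0.23, against 0.01 over all genes. None passed an FDR of 0.05 by edgeR, as 0.0379% of all genes did. An unadjusted p under 0.05 was reached by 8 (21.6%) as lower, against 4.85% of all genes, and 12 (32.4%) lay below sham without overlap, against 4.97%. By DESeq2 on the 8 mice 1 gene, Ndufv1 (adjusted p = 0.0343), was called as lower, against 0.468% of all genes. The 8 were Ndufv1 (-0.29, adjusted p = 0.289), Ndufa13 (-0.35), Ndufb8 (-0.35), Ndufs1 (-0.32), Ndufb9 (-0.28), Ndufa10 (-0.32), Ndufa9 (-0.33) and Ndufb6 (-0.26). This comparison shares its sham mice with CLP versus sham, where the same genes had -0.31, -0.39, -0.48, -0.34, -0.35, -0.50, -0.52 and -0.42. For the core subunits of the NADH-oxidising module the medians were -0.34 in CLP and -0.29 in CLP+DCA, for those of the ubiquinone-reducing module -0.33 and -0.23, for the matrix arm -0.34 and -0.22, for the proximal membrane arm -0.23 and -0.18 and for the distal one -0.38 and -0.25. Without CLP+DCA replicate 3, the median over the 37 genes was -0.12, and 35 genes were lower than in sham.

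**Figure D4:**
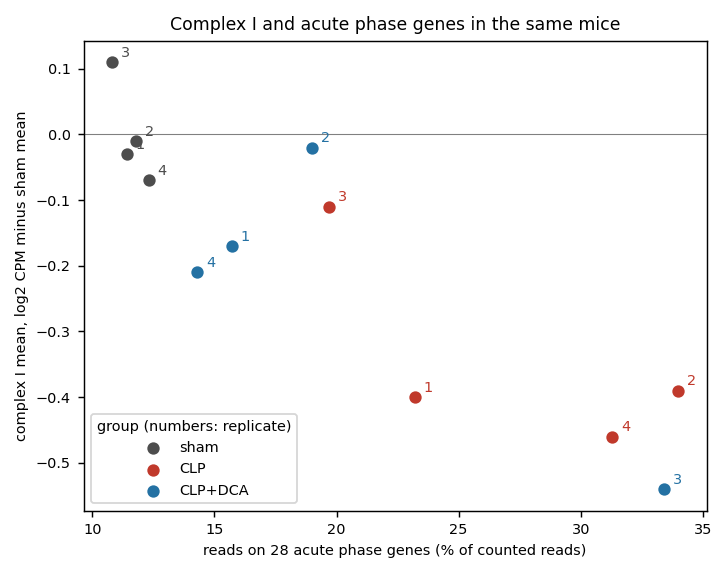
Mean log2 CPM of the tested complex I genes, less the sham mean, against the share of counted reads on 28 acute phase genes (%) in each of 12 mice, coloured by group with replicate numbers. Sham mice lie at 10.8% to 12.3% and near 0, CLP replicates 1, 2 and 4 and CLP+DCA replicate 3 lie at 23.2% to 34% and at -0.39 or below, and the other septic mice lie between 14.3% and 19.7%.

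The 4 mice with the most acute phase reads had the lowest complex I values, but this order did not hold among these 4 or among the other septic mice. CLP replicates 1, 2 and 4 and CLP+DCA replicate 3, at 23.2% to 34% acute phase reads, had complex I means of -0.54 to -0.39, and the remaining septic mice, at 14.3% to 19.7%, had -0.21 to -0.02. Among the first 4, CLP replicate 2 had the most acute phase reads (34%) and the highest complex I mean (-0.39). Among the remaining septic mice, CLP+DCA replicate 4 had the fewest (14.3%) and the lowest mean (-0.21). Since both measures share a library and the mice fall into clusters, no correlation is given. When library sizes were computed without the acute phase genes, the median in CLP versus sham was again -0.34. TMM trims genes with extreme differences in any case, so that this setting could change little and does not test the part of acute phase RNA. With library size alone it was -0.50, but the median of all genes then stood at -0.15, and the members' median less that of all genes was -0.35, as against -0.36 with TMM. Neutrophil marker sums of 31.8 to 57.4 CPM were found in the same 4 mice and in CLP replicate 3 (35.6 CPM), whose complex I mean was -0.11. The part of acute phase RNA and of neutrophils in the complex I differences was not tested.

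Genes around complex I were taken from lists. Of 23 complex I assembly factors 21 were tested, and in CLP versus sham 18 were lower, 9 at an unadjusted p under 0.05 and none at an FDR of 0.05 (median -0.30). For this count and those of complexes III to V below, the share of all genes lower at that unadjusted p was 13.1%. Aifm1, which imports subunits through its partner Chchd4, was at 89.9 ± 3.62 CPM in sham and 70.4 ± 4.63 CPM in CLP (-0.35, adjusted p = 0.0529), and Tmem126a was at 25.4 ± 0.724 and 20.7 ± 1.17 CPM (-0.30, adjusted p = 0.0636). The lowest was Ndufaf6 at -0.71 (adjusted p = 0.0938). Complex II, which reduces ubiquinone from succinate, had all 4 genes lower (median -0.46), with Sdha at -0.56 (adjusted p = 0.0529) and Sdhb at -0.76 (adjusted p = 0.0702). Complex III had 9 of 9 nuclear genes lower, 8 with an unadjusted p under 0.05 (median -0.41), and Uqcrc2, a core protein, fell by 0.56 (adjusted p = 0.0461). Complex IV had 11 of 12 tested genes lower, 10 with an unadjusted p under 0.05 (median -0.35), and Cox7b fell by 0.51 (adjusted p = 0.0418). Complex V had all 17 lower, 15 with an unadjusted p under 0.05 (median -0.39). The medians of complexes II to V thus ran from -0.46 to -0.35, beside -0.34 for complex I, and no test of complex I against them was run.

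Routes that bring electrons to ubiquinone without complex I were mixed. Of 8 genes 6 were lower in CLP (median -0.17), among them Sqor, which oxidises hydrogen sulfide, at 172 ± 21.7 CPM in sham and 82 ± 26.2 CPM in CLP (-1.07, adjusted p = 0.0595), and Etfa (-0.56, adjusted p = 0.0893), whereas Etfdh (0.24) and Gpd2 (0.01) were not. Of 12 regulators of respiratory chain transcription 9 were lower, 6 with an unadjusted p under 0.05, and 3 higher, 2 with an unadjusted p under 0.05, and none passed an FDR of 0.05. At that unadjusted p 13.1% of all genes were lower and 15.5% higher, so that the 2 higher regulators are near the share of all genes. The coactivator Ppargc1b was at 3.66 ± 0.325 CPM in sham and 1.94 ± 0.249 CPM in CLP (-0.91, adjusted p = 0.0691), and its relative Pprc1 at 12.6 ± 3.02 and 21.2 ± 2.73 CPM (0.75, adjusted p = 0.0702). Ppargc1a (-0.08), Nrf1 (-0.07) and Yy1 (-0.12), whose product binds the second motif above, differed little, while Esrra was at -0.64 (adjusted p = 0.143). The other lower regulators with an unadjusted p under 0.05 by edgeR were Gabpa (-0.29), Gabpb1 (-0.32), Tfam (-0.22) and Tfb2m (-0.20), with adjusted p of 0.107 to 0.155. The other higher one was Tfb1m (0.57, adjusted p = 0.0739). In CLP+DCA versus CLP the medians were 0.14 for assembly factors, 0.08 for complex II, 0.15 for complex III, 0.12 for complex IV and 0.14 for complex V, beside 0.09 for complex I, with no gene of these lists at an FDR of 0.05.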

How the data were processed

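RNA of 12 whole livers (4 sham, 4 CLP, 4 CLP+DCA) was sequenced as poly(A)-enriched TruSeq libraries. The authors aligned reads to mm10 by STAR 2.5, assigned them to genes by featureCounts (Subread 1.5.0-p1) and deposited the unnormalized counts. The gene annotation and strand setting are not given in the sources used here. Groups and replicate numbers follow the labels. Rows were keyed by identifier and coordinates.

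Counts were filtered with filterByExpr (minimum count 10), scaled by TMM and fitted with a robust quasi-likelihood model on all 12 mice in R 4.3.3 with edgeR 4.0.16. The 3 contrasts were tested (two-sided) at a Benjamini-Hochberg FDR of 0.05 over 13190 genes, after a check on simulated data. CPM use TMM-scaled library sizes, and log2 CPM a prior count of 2. Reads carry no molecular identifiers, and counting error understates the true error. DESeq2 1.42.0, limma 3.58.1 (voom), other scalings, filters and thresholds, a replicate block and leaving out each mouse were alternatives.

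Members, structural groups and gene lists were written from general knowledge with earlier results of these data known. Full statistics are given for the 10 members with the smallest p in CLP versus sham and the 5 in CLP+DCA versus CLP. They are also given for the 3 largest and 3 smallest log2 fold changes, the core subunits, Ndufa4 and Ndufa4l2. In the other lists, genes past the FDR and the 2 with the smallest p were planned, and only part of these are named. Of the 28 acute phase genes, 15 passed the FDR as higher in CLP versus sham by edgeR, against 1.64% of all genes, and are not named. The values of 1 member, which enters the counts and medians, are not reported here. Other genes were named after their values were seen. The exact permutation test planned for a member removed by the filter was not run for Ndufs5, which had 1 read.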

Additional observations from a re-analysis of the deposited data

Results flagged for a closer look

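Of 111 groups of 4 mice (36 tested genes and the mean over the tested genes, in 3 groups), 13 held a mouse far from the other 3 by Dixon's test, where chance gives about 1 in 20. The genes are not independent, and 8 of the 13 concern CLP replicate 3 or CLP+DCA replicate 3. All 13 concern single genes, and the mean over the tested genes held no such mouse in any group.

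CLP+DCA replicate 3 was low at 52.2 CPM for Ndufa9 (others 72.8 to 77.5), 40.1 CPM for Ndufb10 (77.1 to 83), 36.2 CPM for Ndufb5 (58.5 to 64.3), 31.2 CPM for Ndufb6 (42 to 43.9) and 51.8 CPM for Ndufv2 (68.8 to 70.9). CLP replicate 3 was high at 189 CPM for Ndufa4 (others 148 to 149), 39.1 CPM for Ndufb6 (34.4 to 35.2) and 67.2 CPM for Ndufb8 (47.6 to 50.5). Sham replicate 3 was high at 54.3 CPM for Ndufa3 (others 47.9 to 48.7), 241 CPM for Ndufa4 (214 to 218), 99.9 CPM for Ndufb10 (85.3 to 87.5) and 61.3 CPM for Ndufs8 (53 to 53.7). CLP+DCA replicate 4 was high for Ndufs1 at 87.5 CPM (others 60 to 63.8). What sets these mice apart was not tested.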

How the results depend on the processing

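In CLP versus sham the median of the complex I genes was negative and all called members were lower under every alternative run. The count of 0 members at an FDR of 0.05 became 14 in DESeq2 on all mice (5.92% of all genes called as lower), 24 in DESeq2 (11.5%) and 20 in edgeR (8.99%) on the 8 mice compared, 27 with voom (12.9%) and 16 at an FDR of 0.1 (6.9%). Leaving out 1 mouse gave 0 to 23 members, with 14 without CLP replicate 3 (3.26% of all genes), 23 without CLP+DCA replicate 3 (11.5%) and 1 without CLP+DCA replicate 4 (1.6%), and leaving out both replicates 3, chosen after seeing the data, gave 27 (15.3%). With library size alone the median was -0.50, and leaving out 1 mouse gave -0.42 to -0.30. Ndufa1 turned to 0.0027 with the filter of at least 1 CPM and ranged from -0.04 to 0.03 without 1 mouse, and Ndufa2 from -0.06 to 0.06.

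In CLP+DCA versus CLP the count of 0 became 10 higher with voom (4.65% of all genes), 0 to 1 without 1 mouse (1 without CLP+DCA replicate 3, 2.01%) and 16 without both replicates 3 (8.27%). The median ranged from 0.02 to 0.19 without 1 mouse and was 0.23 with voom, 0.27 without both replicates 3 and 0.20 with library size alone, where that of all genes was 0.12. In CLP+DCA versus sham it became 1 in DESeq2 on the 8 mice (Ndufv1, with 0.468% of all genes called as lower) and 2 with voom (Ndufs1 and Ndufv1, 1.58%), stayed at 0 without any 1 mouse, and the median ranged from -0.29 to -0.12 without 1 mouse and was -0.13 with voom. What lies behind these shifts was not tested. With RLE factors, no filter and library sizes without acute phase genes, 0 members passed in each comparison.

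The labels do not say whether the replicate numbers pair the mice. Same-numbered mice correlated in their deviations at -0.46 to 0.55, without a common sign. These values also hold every other difference between mice of a group and cannot settle whether such mice shared a batch. With the replicate block 0 members passed in each comparison, the median in CLP versus sham was -0.34 with 21 members at an unadjusted p under 0.05, and 46 of all genes were called, against 367 without it. In CLP+DCA versus CLP and CLP+DCA versus sham the block gave medians of 0.11 and -0.23.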
